A study of Mus musculus with 4 samples.

Results

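Cytotoxic lymphocytes kill target cells by granules loaded with perforin and granzymes and by Fas ligand, and the 8 genes described here are the granzymes *Gzma*, *Gzmb*, *Gzmk* and *Gzmm*, perforin (*Prf1*), the granule membrane protein gene *Nkg7*, the death ligand *Fasl* and its receptor *Fas*. They were chosen by symbol, and all 8 were found among the 30905 genes of the count matrix. The cells came from 2 allogeneic grafts (Balb/C hearts) and 2 syngeneic grafts (C57BL/6J hearts), each placed in the abdomen of a C57BL/6J recipient and taken at day 5. Donors and recipients were male, 8 to 10 weeks old, and dissociated cells were profiled with 10x Chromium 3' v3 chemistry. The merged matrix of 53824 cells divides into 4 libraries by the suffix of the cell barcode, and neither the labels nor the study's methods pair a suffix with a graft. All cells were therefore treated as 1 pooled sample, the grafts were not compared, and values are descriptions with no test. Because a graft in a C57BL/6J recipient holds lymphocytes of the recipient and may still hold those of the donor, the lymphocytes below were not assigned to either animal.

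Perforin opens pores in the membrane of a target cell, and granzymes, which are serine proteases stored in the same granules, enter through them and start cell death. Fas ligand acts from the surface of the lymphocyte on Fas, a receptor that recruits FADD and caspase 8 in the target. In transplanted hearts CD8 T cells and NK cells carry both weapons, while endothelial cells, cardiomyocytes and other graft cells are the targets.

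Levels are given as CPM, the unique molecular identifiers (UMIs, each 1 captured transcript) of a gene per 1e6 non-mitochondrial UMIs of a group of cells. The ranges in brackets are 95% intervals, exact Poisson for levels and Clopper-Pearson for shares, and they cover counting error only. Where no cell of a group had a UMI, the limit given is 3 cells of its total. After filtering, 42395 cells remained in 27 clusters, which were named from marker genes except for 6 (6714 cells). The T/NK-like cluster, where 8 of 8 T cell markers were found, held 1820 cells (4.29% of the kept cells): 175 from library 1, 162 from library 2, 120 from library 3 and 1363 from library 4. Its share of the kept cells was 1.28% to 1.78% in libraries 1 to 3 and 12.7% (12.1% to 13.3%) in library 4. Total UMIs ran from 96020294 to 166079145 per library, and the median per cell from 4759 in library 2 to 9784 in library 4. Library 4 stood apart in depth, in lymphocytes and in several of the genes below, and 308 barcode sequences occurred in more than 1 library (21 of the T/NK-like cells had such a barcode). The cluster was divided again without using the 8 genes, into 8 subclusters: 2 were NK-like (397 cells), 4 T-like (1110 cells) and 2, subclusters 4 and 6, were led by genes of other classes.

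The coordinates are those of GRCm38 (GENCODE M21). *Gzma* is at chr13:113093825-113100981 and *Gzmk* at chr13:113171608-113225908, both on the minus strand, and *Gzmk* overlaps *Esm1* on the other strand. *Gzmb* is at chr14:56258838-56262260 (minus), *Prf1* at chr10:61297833-61304680 (plus) and *Gzmm* at chr10:79689020-79695261 (plus). *Nkg7* is at chr7:43437073-43438249 (plus), *Fasl* at chr1:161780689-161788495 (minus) and *Fas* at chr19:34290666-34327772 (plus), where it overlaps *Gm27818*.

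The promoters of *Gzma*, *Gzmb* and *Prf1* are shown because the comparisons of lymphocytes below turn on these effector genes. Each is the 250 bases before the start of the gene in RefSeq (GRCm38.p6), written 5′ to 3′ on the strand of the gene: chr13:113100982-113101231 (minus), chr14:56262335-56262584 (minus) and chr10:61297586-61297835 (plus). Capitals mark the letters TGTGGT, or ACCACA where they lie on the other strand, the core bound by RUNX factors such as Runx3.
Gzma: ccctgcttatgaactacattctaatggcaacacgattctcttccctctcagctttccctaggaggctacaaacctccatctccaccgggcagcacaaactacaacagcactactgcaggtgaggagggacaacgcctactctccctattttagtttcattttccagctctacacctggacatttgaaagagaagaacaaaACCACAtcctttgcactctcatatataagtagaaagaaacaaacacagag
Gzmb: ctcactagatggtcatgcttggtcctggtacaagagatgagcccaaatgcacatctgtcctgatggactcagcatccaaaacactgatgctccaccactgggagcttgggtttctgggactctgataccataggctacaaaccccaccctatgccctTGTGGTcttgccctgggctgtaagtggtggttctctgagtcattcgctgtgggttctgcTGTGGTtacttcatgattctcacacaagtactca
Prf1: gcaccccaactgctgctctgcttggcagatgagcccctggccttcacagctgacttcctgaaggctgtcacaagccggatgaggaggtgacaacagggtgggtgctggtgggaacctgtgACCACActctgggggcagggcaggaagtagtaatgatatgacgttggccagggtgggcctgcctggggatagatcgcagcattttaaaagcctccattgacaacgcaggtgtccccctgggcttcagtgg
The RUNX letters began 50 bases before the start in *Gzma*, 93 and 34 bases before it in *Gzmb* and 130 bases before it in *Prf1*. They were also 83 bases before the start of *Nkg7* and 247 bases before 1 of the 2 starts of *Gzmm*, and were not in the windows of *Gzmk*, *Fasl* and *Fas*. So 5 of 8 genes held them, against 14.0% of the 32851 promoters of the same length. Of the 5 other motifs searched on both strands, the T-box letters TCACAC were in 4 of 8 genes (12.3% of all promoters), AP-1 TGANTCA in 2 (6.75%), NFAT GGAAA in 5 (55.6%), STAT TTCNNNGAA in 3 (7.02%) and ETS CAGGAA in 3 (25.7%). The NFAT and ETS letters can share bases. A match is a description of the letters and not a bound site.

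Transcripts of 6 of the 8 genes were concentrated in the small T/NK-like cluster. It held 94.0% of the 70880 *Gzma* UMIs, 93.7% of the 115115 *Gzmb* UMIs, 95.4% of the 1187 *Gzmk* UMIs, 94.1% of the 17604 *Prf1* UMIs, 93.3% of the 49590 *Nkg7* UMIs and 91.5% of the 1667 *Fasl* UMIs. *Gzmm*, the granzyme found mainly in NK cells, was sparse, with 763 UMIs in all and 31.7% of them in this cluster. *Fas* was not concentrated there, with 2.85% of its 28839 UMIs in T/NK-like cells and 37.9% in endothelial-like cells. These cells held 5.95% and 24.9% of the UMIs of all genes.

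Against all other kept cells, with 10 CPM added to both sides, 6 of the 8 genes were over 4-fold higher in T/NK-like cells and none over 4-fold lower. Among the 9638 genes tested, 2.24% were 4-fold higher and 9.18% were 4-fold lower. *Gzmb* stood at 4261 CPM (4236 to 4287) against 18.2 CPM, 151-fold on this scale. *Gzma* stood at 2632 CPM (2612 to 2652) against 10.7 CPM, 128-fold. *Nkg7* stood at 1829 CPM against 8.26 CPM and *Prf1* at 655 CPM against 2.60 CPM, 101-fold and 52.8-fold. These folds mix libraries, since 1363 of the 1820 T/NK-like cells were of library 4. The median log2 difference of the member genes tested was 5.72 pooled and 3.95 within library 4, where 6 of 8 were over 4-fold higher. It was 6.02 in library 1 (5 of 6 tested), 4.75 in library 3 (5 of 7) and 1.25 in library 2 (1 of 4). Within library 1 a *Gzmb* UMI was in 37.1% of T/NK-like cells (median depth 6810 UMIs) and in 0.503% of erythroid-like cells (7143), red cell precursors that should lack the gene. Within library 4 it was in 84.7% of T/NK-like (11635) and 44.8% of endothelial-like cells (9563). The remaining genes past the fold, *Fasl* and *Gzmk*, were lower in level. *Fasl* stood at 60.3 CPM against 0.355 CPM (6.79-fold) and *Gzmk* at 44.7 CPM against 0.137 CPM (5.40-fold). *Gzmm* did not reach 10 CPM on either side (9.56 against 1.30 CPM), and *Fas* had a log2 difference of -0.91 in T/NK-like cells (32.4 against 70.0 CPM).

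**Figure D1:**
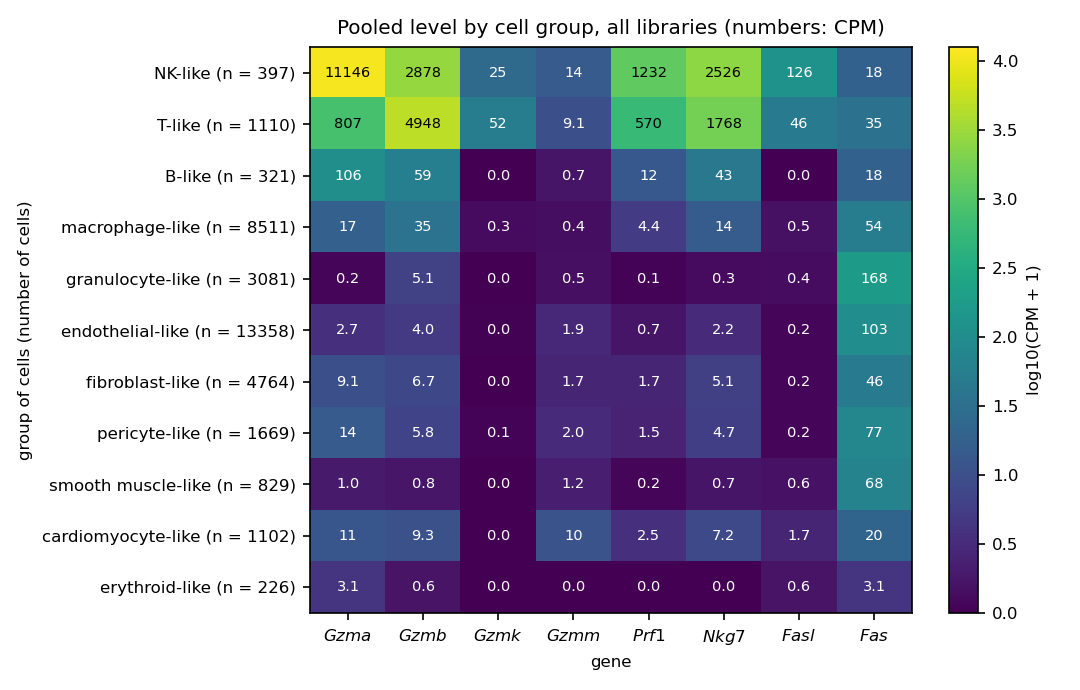
Heat map of the pooled level (CPM, printed in each cell; colour, log10 of CPM + 1) of the 8 genes (columns) in NK-like and T-like subclusters and the other marker-named classes (rows, with the number of cells), all libraries pooled and no error shown. The 6 genes other than *Gzmm* and *Fas* are highest in the first 2 rows, and *Fas* is highest in the granulocyte-like and endothelial-like rows.

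Which lymphocytes held each granzyme differed by gene. *Gzma*, a tryptase of cytotoxic granules, was foremost an NK cell transcript. It reached 11146 CPM (11049 to 11243) in NK-like cells and 807 CPM (794 to 820) in T-like cells, and the NK-like cells, 0.936% of the kept cells, held 72.0% of its UMIs. *Gzmb*, the granzyme that cuts caspases, had the opposite order in the pooled cells. It reached 2878 CPM (2829 to 2927) in NK-like and 4948 CPM (4917 to 4980) in T-like cells, which held 82.1% of its UMIs. *Gzmk*, a tryptase of less differentiated effector T cells, had the pooled order of *Gzmb* at a much lower level, with 24.7 CPM (20.3 to 29.7) in NK-like and 52.0 CPM (48.8 to 55.3) in T-like cells. *Gzmm* was at 14.0 CPM (10.8 to 17.9) and 9.05 CPM (7.75 to 10.5).

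*Prf1*, without which granzymes do not reach the cytosol of the target, was higher in NK-like cells, at 1232 CPM (1200 to 1265) against 570 CPM (560 to 581). *Nkg7*, which is needed for granule release, was closer between them, at 2526 CPM (2480 to 2572) and 1768 CPM (1750 to 1787). *Fasl* was higher in NK-like cells, at 126 CPM (116 to 137) against 45.8 CPM (42.9 to 49.0), and *Fas* lower, at 17.7 CPM (14.1 to 22.0) against 34.6 CPM (32.0 to 37.3). *Gzma* was the 1 gene of the 8 past the 4-fold limit between these lymphocytes, 13.7-fold higher in NK-like cells with 10 CPM added. Over the 7942 genes tested, 0.667% were 4-fold higher and 0.63% 4-fold lower. The intervals did not overlap for any of the 8 genes, although for *Gzmm* they did overlap between the NK and Cd8 gates described next (15.6 and 12.3 CPM).

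This picture rests on the libraries unequally, since 1069 of the 1110 T-like cells were from library 4. Subclusters 4 (169 cells, 157 of library 2) and 6 (144 cells, 88 of library 1 and 54 of library 3) also held T cell genes. They were in neither group, so T cells of libraries 1 to 3 are in part left out of the comparison. NK-like cells came from library 1 (66 cells), library 3 (37 cells) and library 4 (293 cells). In them *Gzma* was at 6856, 2995 and 12668 CPM in libraries 1, 3 and 4. *Gzmb* was at 2106, 1024 and 3185 CPM, and *Prf1* at 817, 644 and 1363 CPM. All of these granule genes were highest in library 4 and lowest in library 3. *Nkg7* stayed level over the same cells, at 2477, 2462 and 2542 CPM, with overlapping intervals. *Fasl* had another order, at 158 CPM (130 to 191) in library 1, 237 CPM (185 to 299) in library 3 and 110 CPM (99.2 to 121) in library 4.

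To see the lymphocyte types without clustering, T/NK-like cells were also gated by single UMIs. The NK gate needed *Ncr1*, *Klrb1c* or *Klre1* and no UMI of *Cd3e*, *Trac*, *Cd8a*, *Cd8b1*, *Cd4* or *Foxp3* (281 cells). Other T cell genes were not excluded from it. The Cd8 gate needed CD3 with *Cd8a* or *Cd8b1* (712 cells), and the Cd4 gate CD3 with *Cd4* (243 cells). The Foxp3 gate needed CD3 with *Foxp3* (72 cells), and the Trdc gate CD3 with *Trdc* (51 cells). Another 461 cells met no gate. *Gzmb* in the Cd8 gate was at 118 CPM (73.7 to 178) in library 1, 0 UMIs in 58 cells of library 2, 256 CPM (189 to 340) in library 3 and 6276 CPM (6233 to 6319) in library 4. In the NK gate it was at 2278 CPM (2160 to 2401) in library 1, 536 CPM (444 to 641) in library 3 and 3306 CPM (3226 to 3387) in library 4. Thus the Cd8 gate was above the NK gate in library 4 and below it in libraries 1 and 3. The 0 UMIs in library 2 allow a share of cells with a UMI of up to 5.17%. Without library 4, *Gzmb* was at 1776 CPM in NK-like cells (104 cells) and 479 CPM in T-like cells (41 cells), the reverse of the pooled order. Most of these T-like cells were of subcluster 8, led by *Cd163l1* and *Trdc* (11, 2 and 11 cells of libraries 1 to 3). None were of subcluster 5, the T-like subcluster highest in *Gzmb*, so the 2 orders compare different T cells.

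*Gzma* in the Cd8 gate was at 0 UMIs in libraries 1 (27 cells) and 2 (58 cells), 219 CPM (157 to 297) in library 3 and 1139 CPM (1121 to 1158) in library 4. In the NK gate it was at 6264, 3142 and 13474 CPM in libraries 1, 3 and 4. The NK gate was above the Cd8 gate for *Gzma* in each library with values for both. *Prf1* kept the same order in each of these libraries, at 797, 446 and 1347 CPM in the NK gate and 26.7, 58.7 and 784 CPM in the Cd8 gate, and at 10.0 CPM in the Cd8 gate of library 2. *Nkg7* was closer between the gates. It was at 2445, 2435 and 2730 CPM in the NK gate and 1346, 1538 and 2140 CPM in the Cd8 gate of libraries 1, 3 and 4, and 124 CPM (87.1 to 171) in that of library 2. The *Gzmb* level of Cd8-gated cells was thus far higher in library 4 than in libraries 1 and 3, while their *Nkg7* level differed by less.

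In the Cd8 gate, *Fasl* and *Gzmk* did not follow *Gzmb* across libraries 1, 3 and 4. *Fasl* in the Cd8 gate was at 80.1 CPM (44.9 to 132) in library 1, 101 CPM (61.1 to 158) in library 3 and 48.2 CPM (44.5 to 52.2) in library 4, with 0 UMIs in library 2. *Gzmk* was at 48.1 CPM (22.0 to 91.3), 74.8 CPM (40.9 to 125) and 59.0 CPM (54.8 to 63.3) in the same libraries, with overlapping intervals. In the NK gate *Gzmk* was at 33.9 CPM (26.3 to 43.0) in library 4, with 3 UMIs in library 1 and none in library 3. It was thus highest in library 4, as *Gzmb* was in that gate. Libraries 1 and 3 had too few *Gzmk* UMIs to be ordered.

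**Figure D2:**
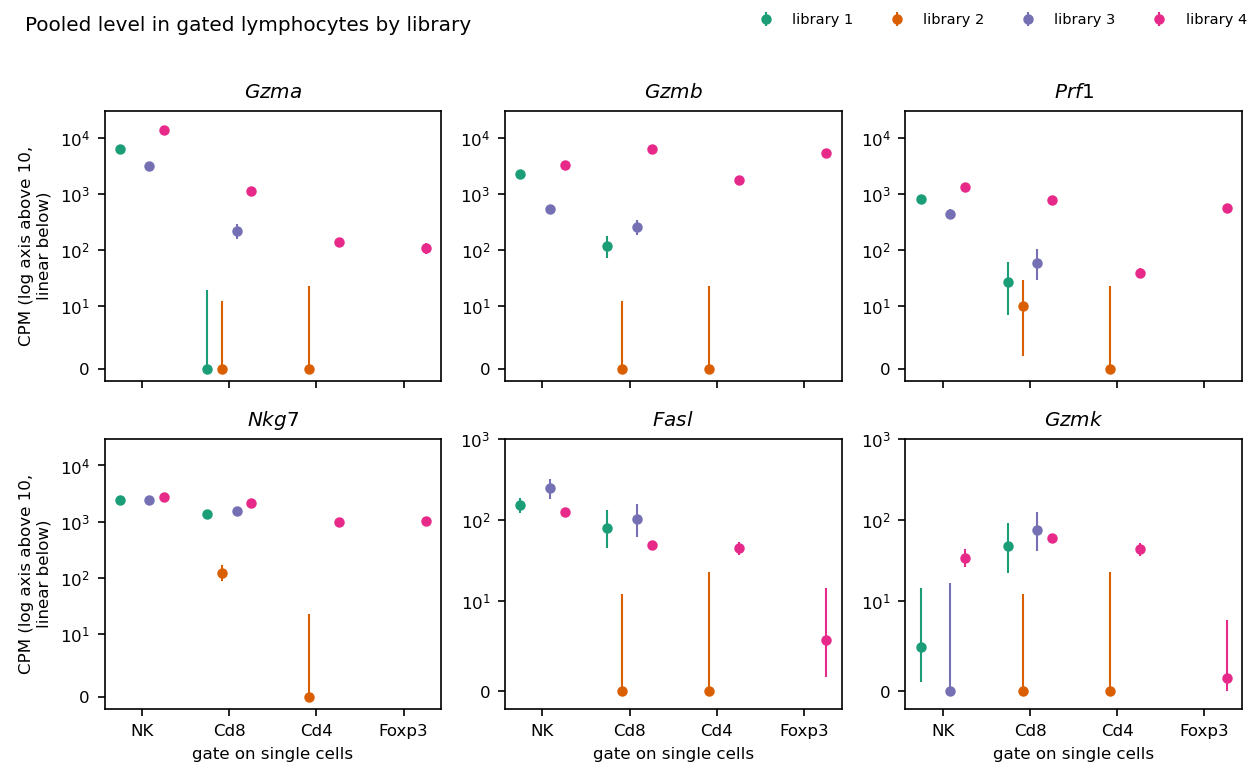
Pooled level (CPM, log axis above 10 and linear below; bars, exact Poisson 95% intervals) of 6 genes in the NK, Cd8, Cd4 and Foxp3 gates, 1 point for each library with at least 20 cells in the gate. *Gzmb* in the Cd8 gate spans 0 UMIs in library 2 to 6276 CPM in library 4, while *Nkg7* in the NK gate stays between 2435 and 2730 CPM.

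CD4 T cells and regulatory T cells, which carry *Foxp3*, held *Gzmb*, in most cells without *Prf1*. In library 4 the Cd4 gate (184 cells) had *Gzmb* at 1774 CPM (1724 to 1826), *Nkg7* at 972 CPM (935 to 1011), *Prf1* at 39.7 CPM (32.4 to 48.1) and *Fasl* at 44.6 CPM (36.9 to 53.5). In library 2 the same gate (35 cells) had 0 UMIs of all 4 genes, which allows up to 8.57% of cells with a UMI of each. The Foxp3 gate (57 cells in library 4) had *Gzmb* at 5448 CPM (5277 to 5623), *Nkg7* at 1031 CPM (958 to 1109), *Gzma* at 108 CPM (85.2 to 135) and *Fasl* at 5.69 CPM (1.55 to 14.6). *Gzmb* UMIs were in 55 of the 72 Foxp3-gated cells of all libraries, and its level without the 2 cells richest in it was 3716 CPM against 4807 CPM with them. *Prf1*, *Gzma* and *Fasl* in this gate rested more on single cells. Of its 400 *Prf1* UMIs 362 (90.5%) were in 2 cells, and the level fell from 497 to 50.9 CPM without them. Of its 76 *Gzma* UMIs 48 (63.2%) were in 2 cells, with 94.5 CPM and 35.8 CPM with and without them, and all 4 *Fasl* UMIs were in 2 cells. In the Cd4 gate of all libraries, 50 of 104 *Prf1* UMIs (48.1%) were in 2 cells, with 35.1 CPM and 18.6 CPM with and without them. The Trdc gate, for gamma delta T cells, was low in *Gzmb* (210 CPM, 160 to 270) and had 2 *Prf1* UMIs.

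Among the T-like subclusters, that with the highest *Gzmb* level was not that with the highest *Fas* level. Subcluster 5 (167 cells, all of library 4), led by *Ifng*, *Ccl3* and *Xcl1*, had the highest *Gzmb* level, 8152 CPM (8050 to 8256), with *Prf1* at 1233.9 CPM (1194 to 1275) and *Nkg7* at 2576 CPM (2519 to 2634). Subcluster 2 (384 cells), led by cell cycle genes such as *Top2a* and *Cdk1*, had *Gzmb* at 5267 CPM (5226 to 5309) and *Prf1* at 580 CPM (567 to 594). Subcluster 1 (505 cells), led by *Ifi27l2a*, *Izumo1r* and *Tnfrsf4*, had *Gzmb* at 2136 CPM (2092 to 2181) and *Prf1* at 114 CPM (104 to 125). It was the highest of these in *Gzmk*, at 77.0 CPM (68.8 to 85.8) against 49.2 and 32.3 CPM in subclusters 2 and 5, and in *Fas*, at 70.1 CPM (62.3 to 78.6) against 20.02 and 41.8 CPM. Subcluster 1 held *Cd8a* (298 CPM), *Cd4* (133 CPM) and *Foxp3* (54.9 CPM), so its levels are not those of a single T cell type. Subcluster 8 (54 cells), led by *Cd163l1* and *Trdc*, had *Gzmb* at 211 CPM and *Nkg7* at 95.4 CPM.

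The NK-like subclusters divided by library. Subcluster 3 (292 cells, 289 of library 4) had *Gzma* at 12495 CPM (12380 to 12610), *Fasl* at 110 CPM (99.7 to 122) and *Fas* at 21.3 CPM (16.8 to 26.6). Subcluster 7 (105 cells, 64 of library 1 and 36 of library 3) had *Gzma* at 6047 CPM (5892 to 6205), *Fasl* at 185 CPM (159 to 214) and *Fas* at 4.18 CPM (1.14 to 10.7). The library and the subcluster cannot be told apart here. Subclusters 4 and 6 held T cell genes together with genes of other cells. Subcluster 4 (169 cells, 157 of library 2), led by *S100a8* and *Fabp4*, had 0 *Gzmb* UMIs and *Nkg7* at 132 CPM. Subcluster 6 (144 cells, 88 of library 1 and 54 of library 3), led by hemoglobin genes, had *Gzmb* at 127 CPM, *Gzma* at 186 CPM, *Nkg7* at 1038 CPM and *Fasl* at 80.4 CPM (61.9 to 103).

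In single cells of library 4, each thinned to 1000 UMIs so that depth was equal, *Gzmb* and *Prf1* were found together most often in NK cells. Both were found in 48.1% of NK-gated cells, 30.5% of Cd8-gated, 3.28% of Cd4-gated and 7.02% of Foxp3-gated cells. *Gzmb* alone was found in 22.5%, 38.1%, 39.3% and 73.7% of the same gates. Most Cd4- and Foxp3-gated cells with a *Gzmb* UMI thus had no *Prf1* UMI at this depth. In macrophage-like cells both were found in 0.119% and *Gzmb* alone in 6.56% of cells, and in endothelial-like cells in 0.319% and 5.27%. *Gzma* and *Gzmb* were both found in 66.8% of NK-gated and 27.0% of Cd8-gated cells and in 0.373% of macrophage-like cells. *Fasl* was too sparse at this depth to be paired, with both *Prf1* and *Fasl* in 9.63% of NK-gated and 2.01% of Cd8-gated cells.

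**Figure D3:**
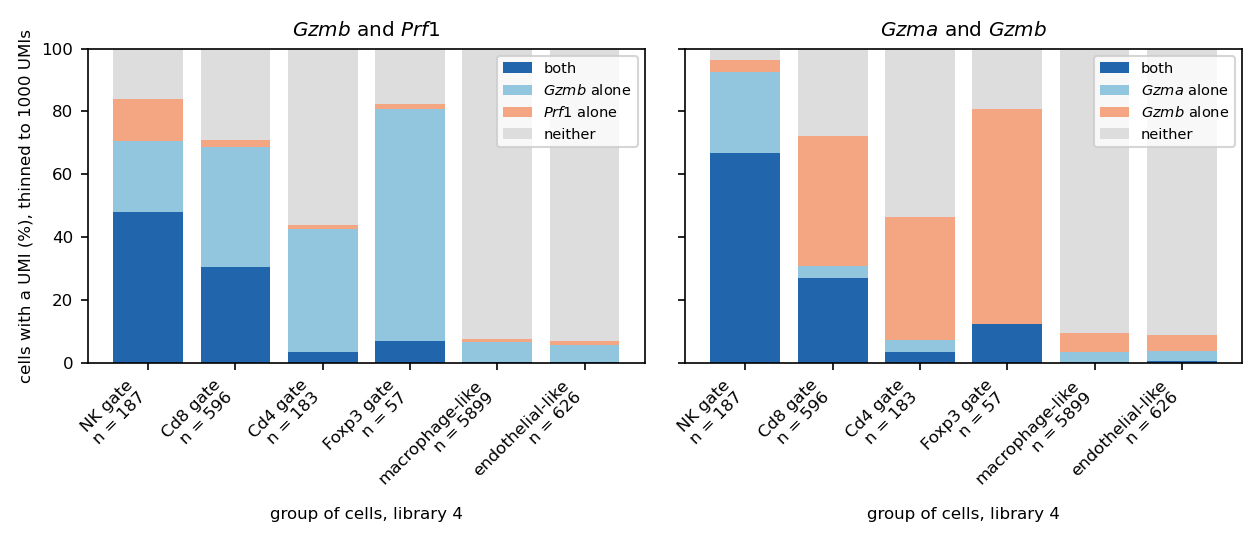
Stacked bars of the share of cells (%, thinned to 1000 UMIs, library 4, n under each bar, no error shown) with a UMI of both genes, of 1 gene alone or of neither, for *Gzmb* with *Prf1* and for *Gzma* with *Gzmb*. The share with both *Gzmb* and *Prf1* falls from 48.1% in the NK gate to 3.28% in the Cd4 gate, and is 0.119% in macrophage-like cells.

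Outside the T/NK-like cluster, *Gzma*, *Gzmb*, *Prf1* and *Nkg7* were found in each of the 9 classes and unnamed clusters with at least 20 cells of library 4, *Gzmb* at 0.462 to 0.810 UMIs per cell once single rich cells were left out. For this, cells with 10 or more UMIs of a granule gene were set aside. *Gzmb* then had 0.747 UMIs per macrophage-like cell (median depth 14770 UMIs), 0.660 per endothelial-like cell (9563) and 0.771 per fibroblast-like cell (25803). It had 0.622 per B-like cell (3990) and 0.643 per cardiomyocyte-like cell (2506.5). The number per cell thus stayed in this range while the median depth of these classes ran from 2506.5 to 25803 UMIs. A *Gzmb* UMI was in 51.3% of macrophage-like, 44.8% of endothelial-like, 51.7% of fibroblast-like and 41.1% of B-like cells of library 4. It was in 92% of NK-gated (median depth 9009 UMIs) and 90.1% of Cd8-gated cells (17088.5) of that library. Where the UMIs in the other classes came from was not tested.

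The ratio of *Gzmb* to *Gzma* UMIs in these cells was 1.5 to 2.72 over 9 classes and unnamed clusters, and 1.74 in the T/NK-like cells of library 4. In macrophage-like cells *Gzmb* was at 48.6 CPM (46.7 to 50.4) where a T or NK marker UMI was present (3388 cells) and 51.3 CPM (49.0 to 53.8) where none was (2527 cells). In libraries 1 to 3 the same classes had almost none. Macrophage-like cells were at 0.153 CPM in library 1, 0 UMIs in library 2 and 0.126 CPM in library 3, against 49.6 CPM in library 4, so their pooled *Gzmb* level of 35.2 CPM was 0.081 CPM without library 4. Single rich cells set some other values. *Gzma* in library 4 was at 316 CPM in pericyte-like cells with them and 30.04 CPM without, and at 248 and 51.7 CPM in B-like cells.

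**Figure D4:**
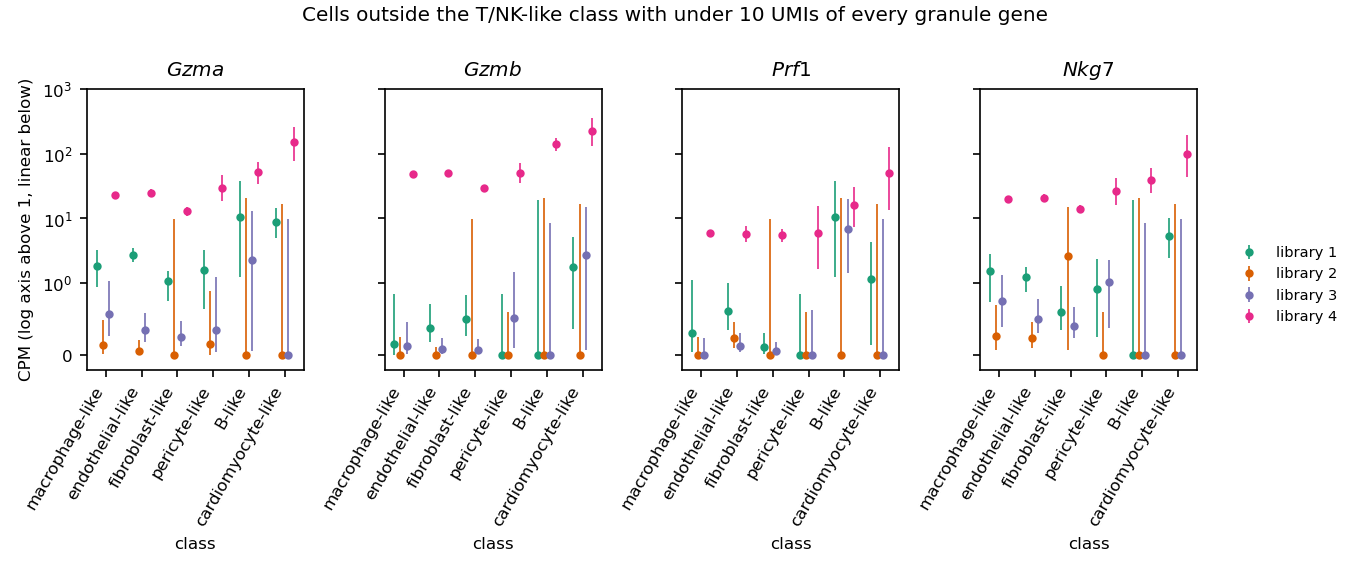
Pooled level (CPM, log axis above 1 and linear below; bars, exact Poisson 95% intervals) of *Gzma*, *Gzmb*, *Prf1* and *Nkg7* in 6 classes outside the T/NK-like cluster, by library, without cells of 10 or more UMIs of a granule gene. *Gzmb* of library 4 lies above the other libraries in all 6 classes, at 49.2 CPM in macrophage-like and 50.4 CPM in endothelial-like cells.

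*Gzmb* was also found in 2 granulocyte-like cells, singled out after their values were seen. They held 60 of the 65 *Gzmb* UMIs of the 3081 granulocyte-like cells, 40 in a cell of library 1 and 20 in a cell of library 2, with no *Gzma* or *Prf1* UMI. The first also had 20 UMIs of *Gata2*, 7 of *Mcpt8* and 1 of *Ms4a2*, and the second 29 of *Gata2* and 2 of *Ms4a2*, genes of basophils and mast cells.

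*Gzmm* had no class of its own in these data. Cardiomyocyte-like cells were at 10.1 CPM (6.50 to 15.1, 24 UMIs) and T/NK-like cells at 9.56 CPM (8.4 to 10.8), with overlapping intervals. In T/NK-like cells it was at 4.89, 2.72, 2.55 and 10.3 CPM in libraries 1 to 4, of which library 2 and library 3 rest on 2 UMIs each. Within lymphocytes of library 4 it was at 19.7 CPM (14.0 to 27.0) in the NK gate, 12.6 CPM (10.8 to 14.7) in the Cd8 gate and 1.53 CPM (0.416 to 3.91) in the Cd4 gate, with 0 UMIs in the Foxp3 gate. The intervals of the NK and Cd8 gates overlapped.

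*Fas*, the receptor, was spread over the graft cells. Its level was 168 CPM (161 to 176) in granulocyte-like, 103 CPM (101 to 105) in endothelial-like, 76.6 CPM (72.5 to 80.9) in pericyte-like and 68.3 CPM (63.3 to 73.6) in smooth muscle-like cells. It was 54.0 CPM (52.7 to 55.3) in macrophage-like, 45.6 CPM (44.1 to 47.1) in fibroblast-like, 32.4 CPM (30.3 to 34.7) in T/NK-like, 20.3 CPM (14.9 to 26.9) in cardiomyocyte-like and 18.1 CPM (11.7 to 26.7) in B-like cells. In this order pericyte-like and smooth muscle-like cells overlapped in their intervals, as did cardiomyocyte-like and B-like cells. The order also rests on which library gave the cells, since 2719 of the 3081 granulocyte-like cells were of library 2, and it did not hold within each library. Erythroid-like cells were lowest, at 3.13 CPM (1.01 to 7.29). After thinning to 1000 UMIs, a *Fas* UMI was in 15% of granulocyte-like, 9.54% of endothelial-like, 5.74% of macrophage-like and 0.448% of erythroid-like cells, the last class being the background here (median depths 3755, 5360.5, 14263 and 7021.5 UMIs before thinning). *Fasl*, its ligand, was at 0.179 CPM (0.108 to 0.280) in endothelial-like cells, and no class outside the T/NK-like one was above 1.69 CPM.

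Library 2 was highest in *Fas* in several of these classes. Endothelial-like cells were at 89.6 CPM (86.0 to 93.3) in library 1, 181 CPM (176 to 185) in library 2, 44.3 CPM (42.2 to 46.5) in library 3 and 98.8 CPM (92.1 to 106) in library 4. Granulocyte-like cells were at 91.7 CPM (64.9 to 126), 177 CPM (169 to 185) and 91.5 CPM (71.8 to 115) in libraries 1 to 3. They thus overlapped with endothelial-like cells in libraries 1 and 2 and were above them in library 3. T/NK-like cells were at 14.7, 73.5, 24.2 and 32.5 CPM in libraries 1 to 4. Of the 162 such cells of library 2, 157 were of subcluster 4, which held T cell genes together with genes of other cells. Whether their *Fas* UMIs came from T cells was not tested. Macrophage-like cells had another order, at 17.2, 53.7, 17.7 and 63.1 CPM, with library 4 highest. Fibroblast-like cells were at 33.2, 50.8, 43.5 and 74.7 CPM, above macrophage-like cells in libraries 1, 3 and 4, the reverse of their pooled order, and within the counting error of them in library 2 (24 cells). Libraries also held different clusters of a class. Of the endothelial-like clusters, cluster 3, nearly all of library 2 (3186 of 3219 cells), was at 182 CPM (177 to 186) and cluster 22, nearly all of library 4 (627 of 629 cells), at 99.2 CPM (92.5 to 106), while clusters 1 and 8 were at 68.6 and 35.5 CPM. The highest level of any cluster, 307 CPM (285 to 330), was in the unnamed cluster 21 (772 cells, 769 of library 4), where 5 of 6 granulocyte markers were found but the depth was low (median 3018.5 UMIs).

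**Figure D5:**
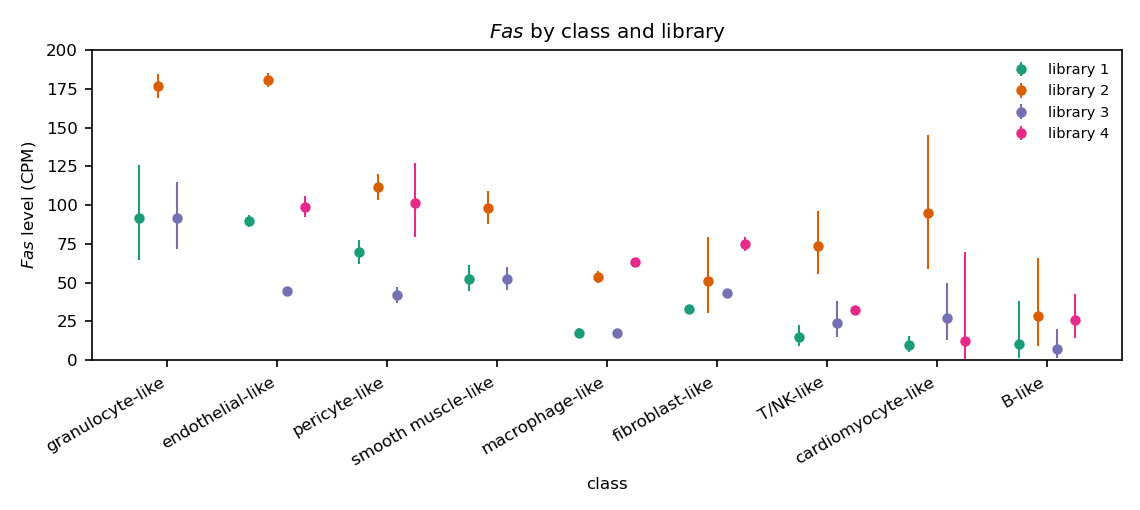
*Fas* level (CPM; bars, exact Poisson 95% intervals) by class, 1 point for each library with at least 20 cells of the class. Library 2 is highest in granulocyte-like, endothelial-like and T/NK-like cells, at 177, 181 and 73.5 CPM, and library 4 in macrophage-like and fibroblast-like cells, at 63.1 and 74.7 CPM. Of the 162 T/NK-like cells of library 2, 157 are of subcluster 4, which also held genes of other cells.

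Of 51 other genes of the killing pathway, in 6 lists, 7 were over 4-fold higher in T/NK-like cells than in the other cells and 6 over 4-fold lower, beside 2.24% and 9.18% of all genes tested. Of the 6 other granzymes only *Gzmc* reached 10 CPM in either group, at 116 against 0.772 CPM (11.7-fold higher), and it too was an NK-like transcript, at 549 CPM against 22.5 CPM in T-like cells. Of the 12 genes of granule content and release, *Ctsw*, a cathepsin of cytotoxic cells (23.3-fold), and *Cst7*, a cystatin that inhibits cathepsins (9.14-fold), were higher. *Ctsc*, the protease that activates granzymes (4.56-fold), and *Lamp1*, a lysosomal membrane protein (4.19-fold), were lower. Both were over 4-fold lower within library 4, and none of the list was within library 1, 2 or 3 alone. The other 8, with *Srgn*, *Rab27a* and *Unc13d* among them, were within 4-fold, and the median log2 difference of the list was 0.35 against -0.07 over all genes tested. Of the 6 regulators, *Tbx21* (6.33-fold) and *Eomes* (6.07-fold), T-box factors of cytotoxic cells, were higher, and *Runx3* stood at 249 against 61.9 CPM. By library, 3 regulators were over 4-fold higher in library 1, 3 in library 3, 2 in library 4 and 1 of 4 tested in library 2. In each of libraries 2 and 4, 1 regulator was over 4-fold lower.

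Of the 4 serpins that inhibit granzymes, *Serpinb6b* was 19.3-fold and *Serpinb9*, which blocks granzyme B, 6.24-fold higher in T/NK-like cells. Within single libraries 2 of this list were over 4-fold higher in library 1, 2 in library 3, 1 in library 4 and 0 of 3 tested in library 2. In library 1 another was over 4-fold lower. *Serpinb9* was at 605 CPM (582.3 to 628) in NK-like, 270 CPM (263 to 278) in T-like and 61.1 CPM (59.6 to 62.6) in endothelial-like cells. *Serpinb6a* had the other order, at 387 CPM (383 to 392) in fibroblast-like, 222 CPM (219 to 225) in endothelial-like and 45 CPM (39.1 to 51.6) in NK-like cells. Of the 7 other death ligands and receptors none was 4-fold higher and 4 were lower: *Tnf* (4.57-fold), its receptor *Tnfrsf1a* (5.05-fold), *Tnfsf12* (4.17-fold) and its receptor *Tnfrsf12a* (5.84-fold). Within single libraries none of this list was over 4-fold lower in libraries 1 and 3, and 2 were in library 2 (*Tnf* and *Tnfrsf12a*) and in library 4 (*Tnf* and *Tnfrsf1a*). Of the 16 genes of death signalling, 15 were tested and none passed 4-fold in either direction in the pooled cells (median log2 difference 0.03). Within each of libraries 1, 2 and 3 alone, 1 gene of this list was over 4-fold higher, and none was in library 4.

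Genes downstream of *Fas* also varied between the classes. These are levels over all cells of a class, not over cells with a *Fas* UMI, and they pool the libraries. Most granulocyte-like cells were of library 2. *Cflar*, which holds caspase 8 in check, was at 498.6 CPM (486 to 511) in granulocyte-like, 231 CPM (228 to 234) in macrophage-like, 175 CPM (172 to 177) in endothelial-like and 51.8 CPM (45.4 to 58.8) in NK-like cells. *Casp8* itself was at 49.2 CPM (45.5 to 53.3), 104 CPM (102 to 106), 99.5 CPM (97.6 to 101) and 79.1 CPM (71.1 to 87.7) in the same classes. *Fadd*, the adaptor between *Fas* and caspase 8, was at 7.43 CPM in endothelial-like and 1.10 CPM in granulocyte-like cells. *Tnfrsf10b*, the receptor for the related ligand TRAIL, was at 60.8 CPM (59.3 to 62.3) in endothelial-like and 42.9 CPM (39.9 to 46.1) in pericyte-like cells, against 4.37 CPM in NK-like cells.

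Between NK-like and T-like cells, 4 genes of the 51 were over 4-fold higher in NK-like cells and none over 4-fold lower, beside 0.667% and 0.63% of all genes tested. They were *Gzmc* (17.2-fold), *Eomes* (7.28-fold), the serpin gene *Serpinb9b* (4.55-fold) and *Tnfsf12* (4.20-fold). *Lta*, the ligand lymphotoxin, went the other way just inside the limit, at 0.437 CPM in NK-like and 30.8 CPM in T-like cells.

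The genes most like each of the 8 in pattern were found by Pearson correlation of log2 level over 34 clusters and subclusters, among 11011 genes. These points share libraries and depth, so the values are descriptions. *Prf1* (r = 0.95), *Nkg7* (0.94) and *Tbx21* (0.94) were nearest to *Gzma*, and *Prf1* (0.94), *Nkg7* (0.93) and *Cst7* (0.93) to *Gzmb*. *Gzmk* differed, with *1700097N02Rik* (0.93), *Sv2c* (0.91) and *Izumo1r* (0.89) nearest, and its r was 0.73 with *Gzma* and 0.77 with *Gzmb*. *Sult2b1* (0.96), *Gzma* (0.95) and *Xcl1* (0.95) were nearest to *Prf1*, and *Klrc1* (0.96), *Xcl1* (0.96) and *Tbx21* (0.96) to *Nkg7*. *Klrc2* (0.98), *Tbx21* (0.97) and *Sh2d1a* (0.96) were nearest to *Fasl*. *Gzmm*, under 20 CPM in every cluster, had *Sult2b1* (0.80), *Crtam* (0.79) and *Prf1* (0.78). *Fas* stood apart, with *Klhl2* (0.84), *Nfkbia* (0.81) and *Plk3* (0.81) nearest and an r of -0.34 with *Fasl*.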

How the data were processed

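The authors aligned reads to mm10 with Ensembl genes and counted UMIs with Cell Ranger 3.0.0. They deposited these raw counts per gene and cell as 1 merged matrix, with no normalization. Per the labels, CASAVA 1.8 and Seurat were also used, and the series has 2 allogeneic and 2 syngeneic grafts.

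As in the study's methods, cells with over 200 genes and under 20% mitochondrial UMIs were kept (44626 cells) and mitochondrial genes were removed. The study's methods also left out 5% of cells as doublets by a scran function, for which the 5% of cells per library nearest to simulated doublets were taken here. Counts were scaled to 10000, and 2000 variable genes without the 8 genes and the pathway lists gave 10 principal components. A graph of 30 shared neighbours was clustered by the Leiden method (leidenalg 0.10.2) at a resolution of 0.8, and T/NK-like cells again at 0.5. A class name needed at least 3 markers. Folds used summed counts with 10 CPM added, and 4-fold as the limit, for genes at 10 CPM in either group. The pathway genes named come from 6 lists, and the 3 most similar genes were named for each of the 8. The fold calculation was tested on simulated counts. Python 3.11.15, numpy 2.4.6, scipy 1.17.1, pandas 2.3.3, scikit-learn 1.9.0, igraph 0.11.9 and matplotlib 3.10.9 were used.

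The genes and lists were chosen with earlier results of these data known. Alternatives tried were resolution, components, filters, doublets, weighting by cell, thinning, gates and each library left out.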

Additional observations from a re-analysis of the deposited data

Results flagged for a closer look

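Signal was found in cells outside every comparison above. The filters on detected genes and mitochondrial share left out 2005 cells of library 4 with a median of 997 UMIs. In these cells *Gzmb* was at 2766 CPM (2707 to 2826) and *Gzma* at 988 CPM (953 to 1025), with *Prf1* at 564 CPM and *Nkg7* at 652 CPM. A *Gzmb* UMI was in 49.5% of them. The left-out cells of libraries 1 to 3 had *Gzmb* at 5.69 CPM, 0 UMIs and 1.71 CPM. The *Gzmb* level of the left-out cells of library 4 lies between that of all T/NK-like cells of this library (4733 CPM) and that of its other kept cells (59.6 CPM). What these cells are was not tested.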

How the results depend on the processing

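No paired analysis was possible because the matrix carries no replicate numbers and its libraries are not paired with grafts. Of 51 alternative values for the main counts and shares, 47 stayed within 1.5 times the value reported, or within its counting interval for a share. The exceptions were these. The count of member and pathway genes over 4-fold higher in T/NK-like cells was 13 with all libraries and 4 in library 2 alone. The share of NK-like cells with both *Gzma* and *Gzmb* was 57.7% after thinning, 85.6% with all UMIs of a cell and 63.1% in library 4 alone, and 42.3% to 60.6% with 1 library left out at a time, lowest without library 4. Library 2 alone has 162 T/NK-like cells. Values for 1 library alone, and those without cells of 10 or more UMIs of a granule gene, were chosen after seeing the data. Of the alternative values for single genes, 65 moved beyond their counting interval and 96 did not. Without library 4, *Gzmb* in T/NK-like cells fell from 4261 to 689 CPM, *Prf1* from 655 to 268 CPM and *Gzmk* from 44.7 to 10.5 CPM, and *Fasl* went from 60.3 to 90.2 CPM. Without library 2, *Fas* in endothelial-like cells fell from 103 to 66.9 CPM. Weighting cells equally gave *Gzmb* 2955 CPM. The number of the 8 genes higher in NK-like than in T-like cells was 5, and 7 without library 4, where most of the 41 T-like cells were of subcluster 8. The sparse genes *Gzmm*, *Gzmk* and *Fasl* are limited by depth.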
